A study of Rattus norvegicus with 4 samples.

Results

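The genes described here make, break down and read the cyclic nucleotides cAMP and cGMP. They were chosen by name from a table of 17147 genes measured by RNA sequencing in neonatal rat ventricular myocytes, and 64 genes met the rule. These are 19 cyclases (Adcy or Gucy), 23 phosphodiesterases (Pde followed by a number), 6 subunits of protein kinase A (Prkaca, Prkacb and those named Prkar) and 16 anchors of that kinase (Akap followed by a number). No measured value entered the rule. The study compared 2 libraries from cells given 3 µM TMP195, a small molecule that inhibits the class IIa histone deacetylases, with 2 libraries from cells given DMSO. Both groups were primary cells of newborn rats in DMEM with Nutridoma and no serum, their source was labelled as left ventricle, and both were harvested after 48 h. The labels give no genotype, strain, sex or age in days. Nor do they state that each library is a culture of its own, so the p-values reflect the variation among these 4 libraries, part or all of which could be technical.

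Cyclases turn ATP or GTP into cAMP or cGMP, and phosphodiesterases hydrolyse the products. Protein kinase A is a tetramer in which regulatory subunits hold the catalytic subunits inactive until cAMP binds, and A-kinase anchoring proteins tie it to particular places in the cell. In cardiac myocytes the cAMP made after adrenergic stimulation raises the rate and force of contraction, and phosphodiesterases confine that signal in space and time.

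The values are fragment counts per gene that the authors estimated and scaled by a single factor per library, so a value of 100 rests on about 100 fragments. The libraries held 14232152 and 13097078 fragments with TMP195 and 12902269 and 11768452 with DMSO. The test was limma on log2(value + 1) for genes whose mean reached 1, a scale that understates the change of low genes, and a gene passed at a Benjamini-Hochberg adjusted p under 0.05 over all 12689 genes tested. Heart muscle cell markers summed to 351247 and 357818 with TMP195, against 385610 and 384297 with DMSO, and of 10 tested 1 rose and 4 fell. Fibroblast markers summed to 69667 and 72611 with TMP195, against 97634 and 94245 with DMSO, and 4 of 10 fell (Col1a1, Col3a1, Pdgfra and Tcf21). Most of that sum was collagen RNA. Col1a1 had 47643 and 49638 with TMP195, against 69970 and 66449 with DMSO. Col3a1 had 11677 and 12892 with TMP195, against 17718 and 17335 with DMSO. Postn, the next most abundant, had 6692 and 6494 with TMP195, against 5861 and 6243 with DMSO. Postn, Ddr2 and Dcn did not pass. Mural and smooth muscle markers summed to 7505 and 7380 with TMP195, against 8529 and 8384 with DMSO, and 3 of 8 fell. For endothelial markers the sums were 381 and 348 with TMP195, against 623 and 694 with DMSO, and 2 of 8 fell. The leukocyte markers stood at 361 and 304 with TMP195, against 289 and 295 with DMSO. Schwann and neural markers summed to 3810 and 3583 with TMP195, against 5487 and 5372 with DMSO, and 1 of 4 tested fell (Ncam1). Epicardial markers summed to 156 and 112 with TMP195, against 123 and 148 with DMSO, and no red cell marker exceeded 5.69 in any library. The part of these other cells in the results that follow was not tested, and in bulk RNA fewer cells of a type and less RNA per cell cannot be told apart.

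Of the 64 genes 55 were tested. With TMP195 4 of them rose and 11 fell, so that 27.3% changed, beside 20.3% of all genes tested (9.93% higher and 10.3% lower). The genes that fell are the kinase's main catalytic subunit Prkaca, 4 phosphodiesterases, 3 adenylyl cyclases and 3 anchors. Those that rose are 3 other anchors and the cyclase Adcy7. The median log2 fold change of the 55 was -0.18, and that of all genes tested was -0.01. Both TMP195 libraries lay below both DMSO libraries for 26 of the 55 and above them for 9, and over all genes tested the groups were apart in 56.7% (28.7% lower and 28.0% higher). The 9 genes that were not tested had a mean value under 1. Among them Gucy2c, Gucy2d, Gucy2e and Gucy2f, membrane guanylyl cyclases known from gut, retina and olfactory epithelium, had 0 in all 4 libraries.

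**Figure D1:**
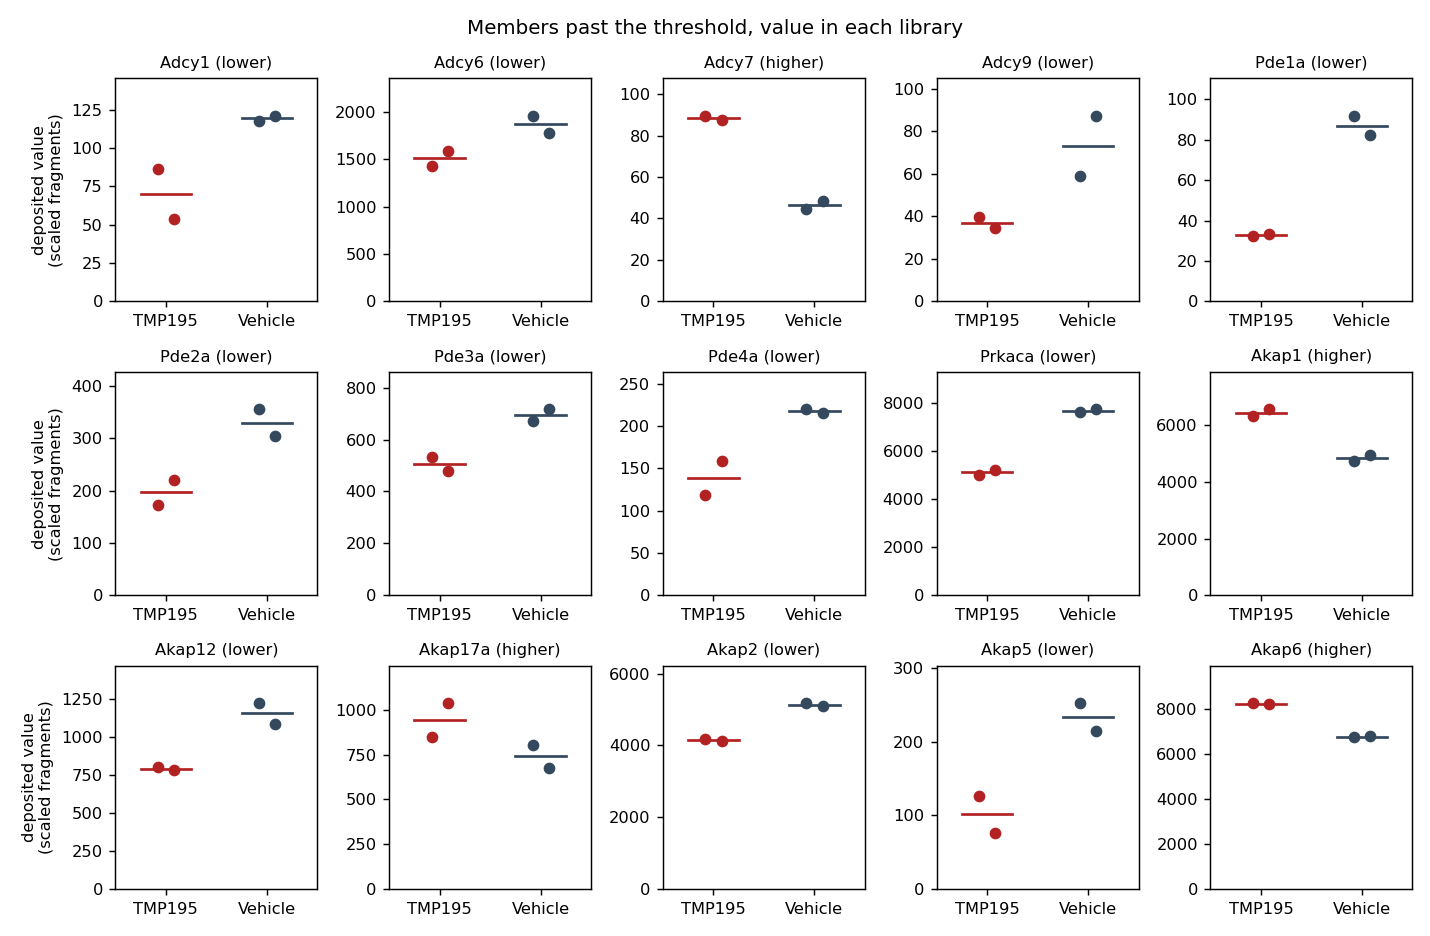
Deposited value (scaled fragments per gene, y axis from 0) in each library of the 15 genes that passed the test, with TMP195 left of Vehicle (DMSO); points are libraries and lines the mean of 2. In no panel do the groups overlap: Adcy7, Akap1, Akap6 and Akap17a were higher with TMP195 and the other 11 genes lower.

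The number of calls rests on having all 4 libraries. Without TMP195 replicate 1, limma called 4 of the 15 (Prkaca, Akap1, Akap5 and Akap12), and when any one of the other 3 was left out it called 0 genes in the whole table, although the unadjusted p was under 0.05 for 2589 to 2772 genes. The same was fitted for genes with means of at least 100, a choice made after seeing this. There the variance came from the trend over all genes alone (infinite prior degrees of freedom). No gene's own variance entered, so the calls of those fits are not read as support. Of the 15 genes 12 entered at least 1 of them. None of the 15 changed sign in any fit that it entered with a library left out.

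Promoters from RefSeq (assembly GRCr8, 250 bases before to 50 after a gene's start) were found for 50 of the 64 genes and searched on both strands. The motifs were the cAMP response element TGACGTCA, to which the kinase's target CREB binds, one arm of it, TGACG, and the MEF2 consensus, bound by the transcription factors that class IIa deacetylases repress. The 50 genes have 64 promoters in the table, and the shares are per promoter unless given per gene. The whole element occurred in 1 of the 64, that of Akap17a, and in 1.83% of all 33469 promoters. One arm, which the whole element also contains, occurred in 15 of the 64 and in 21.2% of all promoters. The MEF2 consensus was found in 0 of the 64 and in 3.29% of all promoters. Counted per gene, an arm was held by 13 of the 50 genes and by 23.0% of all genes with a promoter. Of the 14 genes that passed the test and have a promoter, 6 hold an arm, and this share was not tested. The promoters of 4 of these 6 are printed, chosen because they moved in both directions: Akap17a and Adcy7 rose, and Prkaca and Adcy9 fell. Capitals mark the arm on either strand, or the whole element in Akap17a, and each sequence runs 5′ to 3′ along its gene. They lie at chr12:21428198-21428497, chr19:34936495-34936794 and chr19:41083140-41083439 on the minus strand and at chr10:11645595-11645894 on the plus strand. A match is a run of letters, and no binding was measured.
Akap17a: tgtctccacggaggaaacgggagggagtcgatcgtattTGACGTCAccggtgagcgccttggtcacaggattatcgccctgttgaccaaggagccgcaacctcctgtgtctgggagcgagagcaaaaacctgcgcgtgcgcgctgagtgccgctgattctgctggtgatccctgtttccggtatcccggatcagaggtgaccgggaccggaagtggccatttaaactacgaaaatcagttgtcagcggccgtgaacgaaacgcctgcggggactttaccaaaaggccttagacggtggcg
Adcy7: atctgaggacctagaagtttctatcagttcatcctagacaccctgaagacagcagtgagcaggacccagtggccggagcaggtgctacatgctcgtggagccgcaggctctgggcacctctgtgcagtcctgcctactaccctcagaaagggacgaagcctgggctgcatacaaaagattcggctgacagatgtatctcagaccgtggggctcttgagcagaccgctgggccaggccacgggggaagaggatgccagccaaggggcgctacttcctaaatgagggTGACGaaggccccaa
Prkaca: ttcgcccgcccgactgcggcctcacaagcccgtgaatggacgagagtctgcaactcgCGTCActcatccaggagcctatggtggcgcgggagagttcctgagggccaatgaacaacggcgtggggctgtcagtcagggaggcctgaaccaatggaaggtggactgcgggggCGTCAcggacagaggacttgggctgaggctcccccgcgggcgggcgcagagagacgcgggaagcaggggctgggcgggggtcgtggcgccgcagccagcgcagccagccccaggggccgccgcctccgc
Adcy9: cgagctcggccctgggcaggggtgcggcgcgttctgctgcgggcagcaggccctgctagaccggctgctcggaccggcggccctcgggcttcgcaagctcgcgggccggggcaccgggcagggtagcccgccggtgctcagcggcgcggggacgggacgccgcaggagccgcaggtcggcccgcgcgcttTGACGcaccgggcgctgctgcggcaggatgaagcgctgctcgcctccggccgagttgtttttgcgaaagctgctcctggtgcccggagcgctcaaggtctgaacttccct

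Among the cyclases 3 fell and 1 rose of 13 tested (30.8%, beside 20.3% of all genes), with a median log2 fold change of -0.31. Adcy5 and Adcy6, the calcium-inhibited adenylyl cyclases that prevail in heart muscle, were the most abundant per transcript length. Adcy5 averaged 33.0 FPKM with TMP195 and 36.4 FPKM with DMSO, and Adcy6 averaged 18.8 FPKM with TMP195 and 23.2 FPKM with DMSO. The other 6 cyclases that have an FPKM value averaged between 0.825 and 2.92 FPKM in either group.

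Adcy6 had values of 1429.8 and 1590.2 with TMP195, against 1962 and 1776 with DMSO. Both treated libraries were below both controls, and it fell (log2 fold change -0.31, SE 0.08; limma adjusted p = 0.00804). In GRCr8 Adcy6 overlaps Tuba1c, an alpha-tubulin gene with 3538 and 3929 with TMP195, against 5166 and 4134 with DMSO, whose log2 fold change was also -0.31. The table gives no strand, so fragments from the overlap cannot be assigned to one gene or the other. Adcy5 had 2077 and 2239 with TMP195, against 2395 and 2360.2 with DMSO. Its groups did not overlap either, but the log2 fold change of -0.14 (95% confidence interval -0.30 to 0.02) did not pass (limma adjusted p = 0.216). Together the FPKM of both genes summed to 51.8 ± 3.17 with TMP195 and 59.6 ± 1.99 with DMSO (SD, n = 2 each).

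Adcy7, a cyclase that G protein beta-gamma subunits stimulate, was the one that rose. It had values of 89.6 and 87.3 with TMP195, against 44.6 and 48.4 with DMSO (log2 fold change 0.91, SE 0.28; limma adjusted p = 0.0175). The libraries of each group lay close together and far from the other group. Adcy9, a widely expressed cyclase that is barely sensitive to forskolin, had 39.5 and 34.5 with TMP195, against 58.8 and 87.4 with DMSO, and fell (log2 fold change -0.94, SE 0.32; limma adjusted p = 0.0330). Adcy1, which calcium and calmodulin stimulate, had 86.1 and 53.7 with TMP195, against 118 and 121 with DMSO, and fell (log2 fold change -0.80, SE 0.25; limma adjusted p = 0.0223). TMP195 replicate 2 was the lower of the treated pair for Adcy1, and without it the log2 fold change was -0.47. With genes of any value above 0 kept in the test, Adcy1 and Adcy9 no longer passed (limma adjusted p = 0.0824 and 0.0876).

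The remaining 9 cyclases did not pass. Adcy4 had 23.7 and 50.8 with TMP195, against 84.4 and 45.3 with DMSO, groups that overlapped. Soluble guanylyl cyclase, the nitric oxide receptor, pairs an alpha with a beta chain, among them those of Gucy1a3 and Gucy1b3. Gucy1b3 had 61.5 and 77.7 with TMP195, against 80.6 and 112.7 with DMSO, a log2 fold change of -0.46 (95% confidence interval -0.99 to 0.08). Gucy1a3 had 65.9 and 39.3 with TMP195, against 40.8 and 39.0 with DMSO, a log2 fold change of 0.35 (95% confidence interval -0.35 to 1.04). Both intervals include 0 and reach changes of a size seen among the genes that passed. Adcy2, Adcy3, Adcy8, Adcy10 and Gucy1a2 had group means between 1.80 (Adcy8) and 34.8 (Adcy3).

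**Figure D2:**
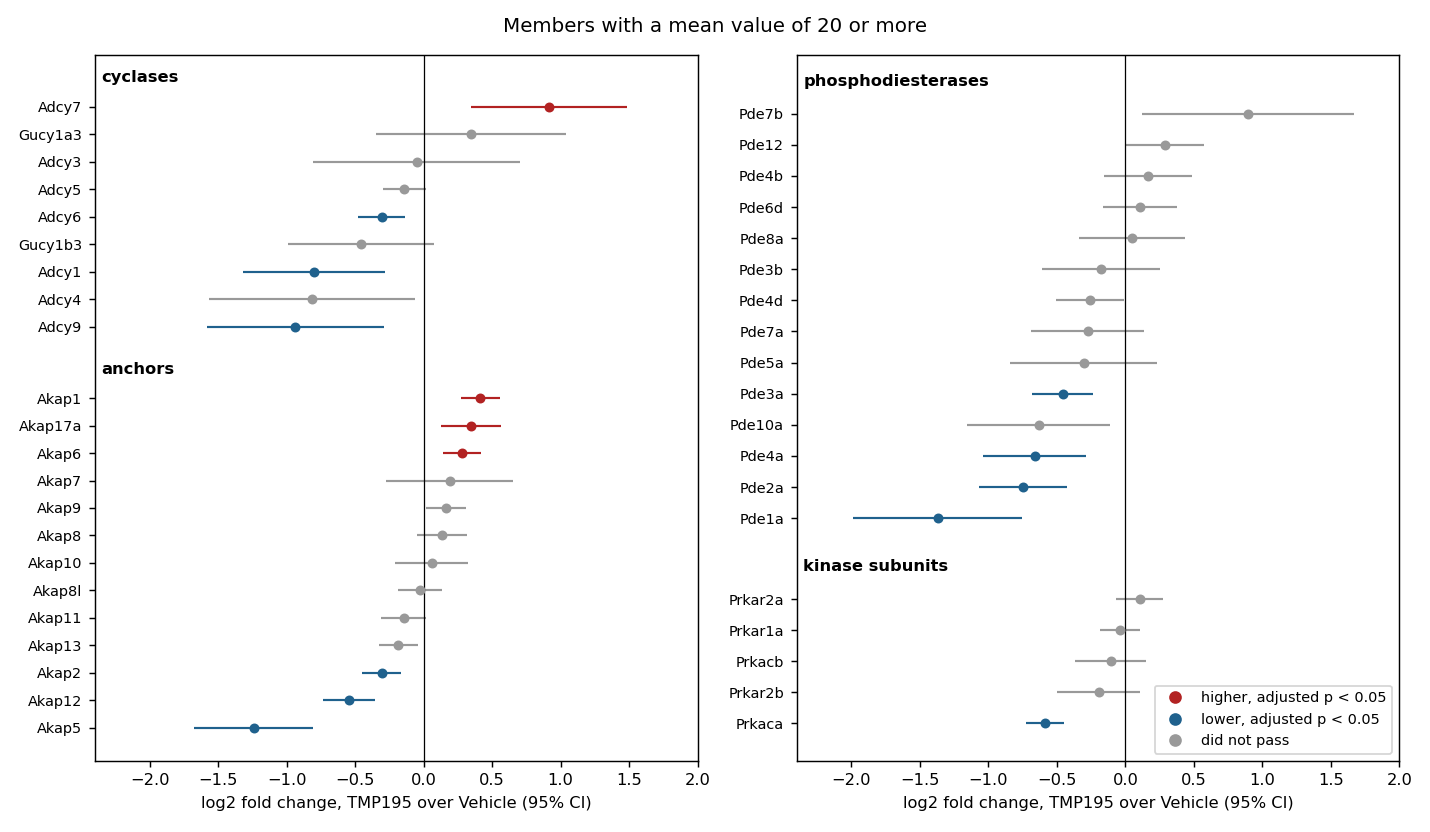
Log2 fold change (TMP195 over Vehicle, x axis) with its 95% confidence interval for the 41 genes whose mean value reached 20, by class; colours mark genes that passed the test as higher or lower. Intervals are wide for low genes such as Pde7b (0.12 to 1.67) and narrow for abundant ones such as Prkar1a (-0.18 to 0.11).

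Of 20 phosphodiesterases tested 4 fell and 0 rose by limma, beside 10.3% and 9.93% of all genes. Taken in either direction, 4 of the 20 passed, a share close to the 20.3% of all genes. At an unadjusted p under 0.05, Pde7b and Pde12 were higher, and Pde10a and Pde4d were lower beside the 4. Of all 12689 genes tested, 3945 reached that p. The class median log2 fold change was -0.28. The genes that fell come from different families: Pde1a is activated by calmodulin, Pde2a is stimulated by cGMP, Pde3a is inhibited by cGMP and is the target of milrinone, and Pde4a is specific for cAMP.

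Pde1a showed the largest change of any phosphodiesterase that passed. It had 32.5 and 33.6 with TMP195, against 92.0 and 82.1 with DMSO, and the log2 fold change was -1.37 (SE 0.30; limma adjusted p = 0.00113). Pde2a had 173 and 221 with TMP195, against 356 and 304 with DMSO (log2 fold change -0.75, SE 0.16; limma adjusted p = 6.69e-04). For both genes the groups were separated by more than the gap within either group.

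Pde3a, the more abundant of the pair that cGMP inhibits, had 532 and 478 with TMP195, against 670.4 and 716 with DMSO, and fell (log2 fold change -0.46, SE 0.11; limma adjusted p = 0.00211). Its paralogue Pde3b had 121 and 110 with TMP195, against 148 and 116 with DMSO, a log2 fold change of -0.18 (95% confidence interval -0.61 to 0.25) that did not pass. Whether Pde3a and Pde3b responded differently was not tested.

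In the cAMP-specific family that rolipram inhibits, Pde4a had 119 and 159 with TMP195, against 220.0 and 216 with DMSO, and fell (log2 fold change -0.66, SE 0.18; limma adjusted p = 0.00910). Pde4d, a phosphodiesterase found with adrenergic receptors and the ryanodine receptor, had 421 and 369 with TMP195, against 482 and 461 with DMSO. Both treated libraries were lower, yet the log2 fold change of -0.26 (95% confidence interval -0.50 to -0.01) did not pass (limma adjusted p = 0.141). Pde4b had 245 and 254 with TMP195, against 200.1 and 248 with DMSO, a log2 fold change of 0.17 (95% confidence interval -0.16 to 0.49). Its groups overlapped. Pde4c was near 0, with 4 fragments in a TMP195 library and 1 in a DMSO library.

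The other phosphodiesterases did not pass. Pde7b, which prefers cAMP, had 58.9 and 45.1 with TMP195, against 38.9 and 19.0 with DMSO (log2 fold change 0.90, SE 0.38; limma adjusted p = 0.0967), and Pde10a, which accepts both nucleotides, had 73.8 and 64.3 with TMP195, against 88.2 and 130.6 with DMSO (log2 fold change -0.63, SE 0.25; limma adjusted p = 0.0802). In both, one DMSO library stood apart from the other. The sildenafil target Pde5a, which hydrolyses cGMP, had 62.4 and 69.1 with TMP195, against 87.2 and 75.8 with DMSO (log2 fold change -0.31, 95% confidence interval -0.84 to 0.23). Pde7a had 118 and 134 with TMP195, against 135 and 173 with DMSO, and Pde8a had 172 and 152 with TMP195, against 138 and 177 with DMSO. Pde1b, Pde1c, Pde6a, Pde9a and Pde11a were low, with the highest group mean at 10.9 (Pde9a with DMSO). Pde6b, Pde6c and Pde8b were not tested, with at most 2 fragments in any library.

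The names Pde6d and Pde12 belong to proteins with other work: Pde6d is a chaperone that carries prenylated proteins, and Pde12 a mitochondrial enzyme that trims poly(A) tails. Pde6d had the highest level per length of the class, 27.4 FPKM with TMP195 and 25.4 FPKM with DMSO. Its values were 338 and 338 with TMP195, against 312 and 316 with DMSO, a log2 fold change of 0.11 that did not pass (limma adjusted p = 0.641). Pde12 had 371 and 315 with TMP195, against 296 and 264 with DMSO (log2 fold change 0.29; limma adjusted p = 0.159).

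The FPKM of the 13 enzymes of cyclic nucleotides that have an FPKM value were summed without Pde6d and Pde12. The sum was 57.4 and 55.7 FPKM in the TMP195 libraries, against 70.2 and 71.2 FPKM in the DMSO libraries. Within the sum Pde4d made up 26.1% ± 1.39 with TMP195 and 24.9% ± 0.943 with DMSO, and Pde3a 19.7% ± 1.06 with TMP195 and 21.6% ± 0.788 with DMSO (SD, n = 2 each). These enzymes held the first and second place in both groups. Behind them Pde4b made up 10.8% ± 0.512 with TMP195 and 7.71% ± 1.08 with DMSO. Pde8a made up 8.66% ± 0.554 with TMP195 and 6.72% ± 1.09 with DMSO. The share of Pde4a was 6.76% ± 1.54 with TMP195 and 8.47% ± 0.199 with DMSO. That of Pde2a was 6.54% ± 1.30 with TMP195 and 8.74% ± 1.09 with DMSO. With DMSO the shares of Pde2a, Pde4a and Pde4b did not differ beyond their spread, and their order differed between the libraries. Pde1a contributed 2.23% ± 0.0997 with TMP195 and 4.71% ± 0.424 with DMSO, and Pde7b 4.56% ± 0.758 with TMP195 and 2.04% ± 1.01 with DMSO. These shares are levels of RNA per length and not enzyme activity, and with 2 libraries against 2 no exact permutation test can give a p below 0.333. With Pde6d and Pde12 in the sum, the difference in the share of Pde4d turns round, to -1.28 percentage points (TMP195 minus DMSO).

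**Figure D3:**
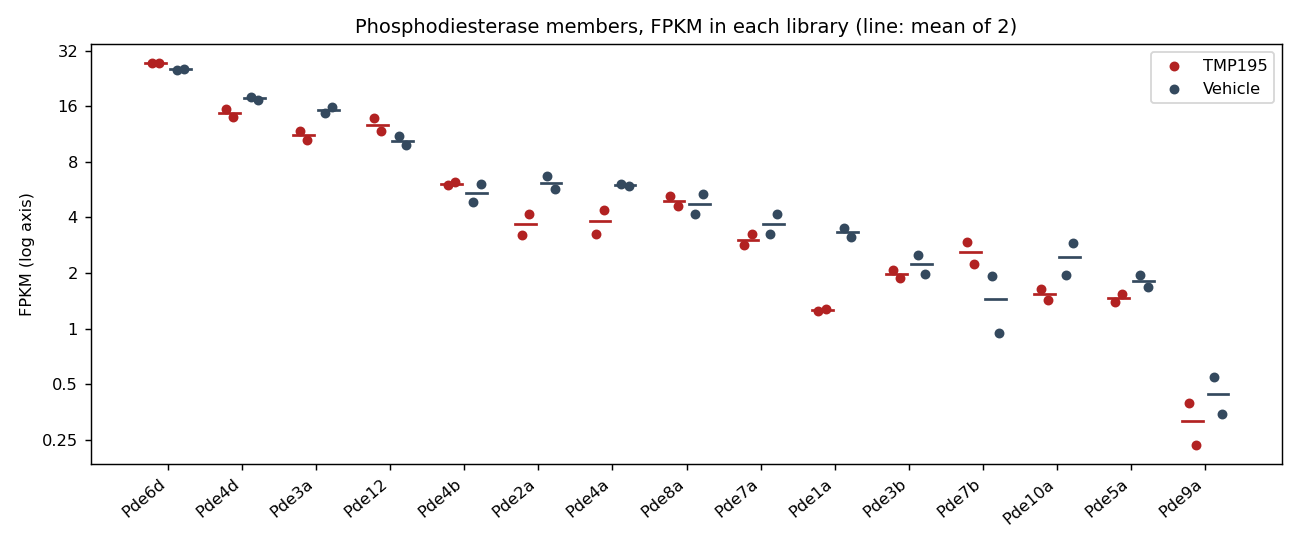
FPKM (log axis) of the phosphodiesterase genes that have an FPKM value, in each library, with TMP195 left of Vehicle for each gene; points are libraries and lines the mean of 2. Pde6d is highest in both groups, at 27.4 FPKM with TMP195 and 25.4 FPKM with Vehicle, followed by Pde4d at 14.8 and 17.6 FPKM.

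Of the 6 kinase subunits 1 passed (16.7%, beside 20.3% of all genes), and it fell. This gene, Prkaca, encodes the alpha catalytic subunit, the main catalytic form in heart. It had values of 5000.3 and 5222 with TMP195, against 7629.5 and 7739 with DMSO, means of 5111 ± 157 with TMP195 and 7684 ± 77.2 with DMSO (SD, n = 2 each). The groups lay far apart relative to the gap within each, and the log2 fold change was -0.59 (SE 0.07, 95% confidence interval -0.73 to -0.45; limma adjusted p = 1.20e-07). This was the smallest adjusted p among the 55 genes. In GRCr8 the Prkaca gene overlaps Smim46 and a further locus, which have no row of their own in the table.

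Prkacb, the beta catalytic subunit, had 335 and 361 with TMP195, against 376 and 373 with DMSO, a log2 fold change of -0.11 (95% confidence interval -0.37 to 0.15). Prkar1a, the type I regulatory subunit that is found everywhere, had 3613 and 3593 with TMP195, against 3782 and 3612 with DMSO, a log2 fold change of -0.04 (95% confidence interval -0.18 to 0.11; limma adjusted p = 0.782). In GRCr8 the Prkar1a gene overlaps Fam20a, which has its own row in the table, so fragments from the overlap cannot be assigned to either gene. Prkar2a, the type II form, had 1582 and 1508 with TMP195, against 1357 and 1519.7 with DMSO, a log2 fold change of 0.10 (95% confidence interval -0.07 to 0.28). These intervals do not reach the change of Prkaca. Prkar2b had 243 and 231 with TMP195, against 273 and 271 with DMSO (log2 fold change -0.20, 95% confidence interval -0.50 to 0.11), and Prkar1b averaged 8.07 with TMP195 and 7.11 with DMSO.

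Per transcript length, Prkaca averaged 179.6 FPKM with TMP195 and 269.9 FPKM with DMSO and was 87.0% ± 0.247 of the catalytic FPKM with TMP195 and 90.3% ± 0.148 with DMSO (SD, n = 2 each). The regulatory subunits summed to 298.7 and 293.3 FPKM with TMP195, against 297.2 and 296.0 FPKM with DMSO. The catalytic subunits summed to 201.6 and 211.4 FPKM with TMP195, against 297.2 and 300.7 FPKM with DMSO. The regulatory sum was therefore 1.48 and 1.39 times the catalytic sum in the TMP195 libraries, against 1.00 and 0.984 times in the DMSO libraries. This ratio of RNA levels was formed after the values of the subunits had been seen and carries no test. Its regulatory sum includes Prkar1a with the overlap given above.

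**Figure D4:**
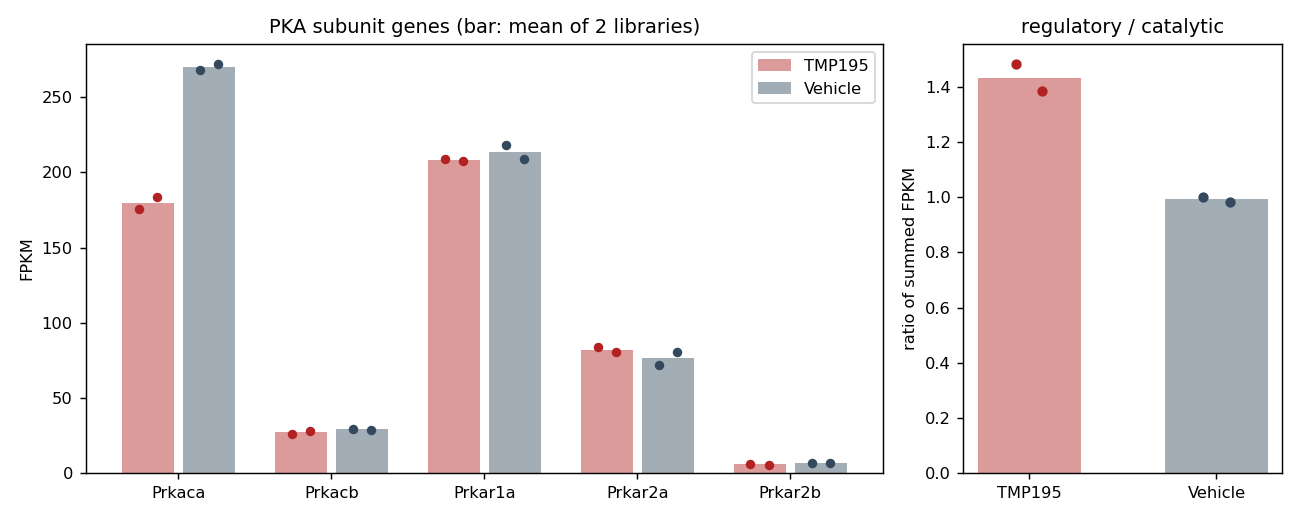
FPKM of the protein kinase A subunits in each library (y axis, FPKM), with TMP195 left of Vehicle, beside the ratio of summed regulatory to summed catalytic FPKM; points are libraries and bars the mean of 2. Prkaca separates the groups, at 175.7 and 183.5 FPKM with TMP195 and 268.0 and 271.9 FPKM with Vehicle, while Prkar1a lies between 207.6 and 218.5 FPKM in all 4 libraries.

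The anchors changed in both directions: of 16 tested 3 rose and 3 fell (37.5%, beside 20.3% of all genes), and their median log2 fold change was -0.01. Akap1, which places the kinase at the outer mitochondrial membrane, was the most abundant anchor per length, with 190.2 FPKM with TMP195 and 142.8 FPKM with DMSO. It had values of 6335 and 6563 with TMP195, against 4723 and 4961 with DMSO, and rose (log2 fold change 0.41, SE 0.07; limma adjusted p = 4.12e-05). Akap6, the scaffold of the nuclear envelope of muscle cells, had 8269 and 8215 with TMP195, against 6747 and 6817 with DMSO, and rose (log2 fold change 0.28, SE 0.07; limma adjusted p = 0.00252). The libraries within each group were close for both genes. Akap17a, linked to pre-mRNA splicing, had 848 and 1038 with TMP195, against 806 and 674 with DMSO (log2 fold change 0.35, SE 0.11; limma adjusted p = 0.0189). Its size moved with single libraries, to log2 fold changes of 0.20 without TMP195 replicate 2 and 0.22 without Vehicle replicate 2, and it did not pass with genes of any value above 0 kept (limma adjusted p = 0.0901).

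Among the anchors that fell, Akap5, which brings the kinase and calcineurin to adrenergic receptors and L-type calcium channels, had 127 and 75.8 with TMP195, against 252 and 215 with DMSO (log2 fold change -1.24, SE 0.21; limma adjusted p = 5.51e-05). Akap12, or gravin, which binds the beta-adrenergic receptor, had 798 and 779 with TMP195, against 1220.4 and 1085 with DMSO (log2 fold change -0.54, SE 0.09; limma adjusted p = 5.80e-05). In Akap5 the treated libraries differed from each other more than in Akap12, but no library crossed into the other group. Akap2, which RefSeq now joins with Palm2 under the name Pakap, had 4183 and 4132 with TMP195, against 5177 and 5102 with DMSO, and fell (log2 fold change -0.31, SE 0.07; limma adjusted p = 0.00152). Per length it stood at 91.2 FPKM with TMP195 and 112.7 FPKM with DMSO, which combines whatever share the joined transcripts hold.

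Among the anchors that did not pass, Akap13, a large scaffold also known as AKAP-Lbc, had 9899 and 8998 with TMP195, against 11010.0 and 10443 with DMSO. Its log2 fold change of -0.18 (95% confidence interval -0.33 to -0.04) lay near the threshold (limma adjusted p = 0.0607). Akap9, a Golgi and centrosome anchor also found with a slow potassium channel, had 3847 and 3917 with TMP195, against 3436 and 3499 with DMSO, a log2 fold change of 0.16 (95% confidence interval 0.02 to 0.31; limma adjusted p = 0.109). In both genes the groups did not overlap. Akap7, Akap8, Akap8l, Akap10 and Akap11 had log2 fold changes between -0.15 (Akap11) and 0.19 (Akap7). Akap3, Akap4 and Akap14, known from sperm and cilia, had group means of at most 14.1 (Akap3).

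A p-value is given for 41 of the 64 genes in the authors' deposited table. The authors' deposited table lists 5 of them as higher with TMP195 (Adcy7, Akap1, Akap6, Akap9 and Pde6d) and 3 as lower (Akap2, Pde3a and Prkaca). Of these, 3 of the 5 and all 3 of the lower genes were also called by limma. Conversely, 9 of the 15 genes that limma called have a p of 0.05524 (Pde1a) to 0.2361 (Akap17a) in the authors' deposited table. The authors' deposited table gives a ratio of 1.076 and a p of 0.04601 for Pde6d, whose TMP195 libraries were almost equal, and a ratio of 1.12 and a p of 0.01294 for Akap9.

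A further list of 66 genes of the same pathway, drawn up by function, had 60 tested genes, of which 8 rose and 11 fell (31.7%, beside 20.3% of all genes). Like the 64 genes it was drawn up with earlier results of these data known. The list's median log2 fold change was -0.00439. Among cAMP effectors and exporters 1 rose and 3 fell of 9, beside 9.93% and 10.3% of all genes. The pacemaker channel Hcn4, which cAMP opens directly, had 654.7 and 638.8 with TMP195, against 1338 and 1429 with DMSO, and fell (log2 fold change -1.10, SE 0.09; limma adjusted p = 2.51e-10). Both treated libraries held less than either control by a wide margin. Abcc4, a pump that exports cyclic nucleotides, had 1635 and 1593 with TMP195, against 1090.5 and 1056 with DMSO, and rose (log2 fold change 0.59, SE 0.08; limma adjusted p = 3.92e-06). Bves, a membrane protein of the Popeye family that binds cAMP, had 1866 and 1669 with TMP195, against 2101 and 2453 with DMSO, and fell (log2 fold change -0.36, SE 0.08; limma adjusted p = 0.00203). Popdc2, of the same family, passed as lower too.

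Of 10 G protein genes 1 rose and 2 fell, beside 9.93% and 10.3% of all genes. Gnao1, an inhibitory-class alpha subunit, had 881 and 835 with TMP195, against 1242 and 1298 with DMSO (log2 fold change -0.56; limma adjusted p = 1.98e-05). Gnai2, the inhibitory alpha subunit that lowers cyclase activity, had 5790.3 and 6236 with TMP195, against 7754 and 7515 with DMSO (log2 fold change -0.35; limma adjusted p = 4.08e-04). Both were lower in each treated library than in each control. The gamma subunit Gng5 had 2669 and 3154 with TMP195, against 1932 and 2136 with DMSO, and rose (log2 fold change 0.51; limma adjusted p = 2.62e-05). Gnas, the stimulatory alpha subunit, had a log2 fold change of -0.18 and did not pass (limma adjusted p = 0.0552).

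Of 7 muscle substrates of the kinase 4 rose and 1 fell, beside 9.93% and 10.3% of all genes. The thick filament protein gene Mybpc3 had 35873 and 36228 with TMP195, against 29276 and 28245 with DMSO (log2 fold change 0.33; limma adjusted p = 6.56e-04), and cardiac troponin I, Tnni3, had 23897 and 25664 with TMP195, against 19800.1 and 20946 with DMSO (log2 fold change 0.28; limma adjusted p = 0.00318). The calcium release channel gene Ryr2 had 22371 and 21190.3 with TMP195, against 29242 and 28101 with DMSO (log2 fold change -0.40; limma adjusted p = 6.16e-05). Tnni3 and Ryr2 are also among the 10 heart muscle cell markers given above. The lipase gene Lipe and the glycolytic regulator Pfkfb2 were the other substrates that rose, and Pln and Cacna1c did not pass.

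Anchors not named Akap fell in 3 of 10 cases and rose in 0, beside 10.3% and 9.93% of all genes. Ezr, encoding ezrin, had 4746 and 4894 with TMP195, against 7523 and 8497 with DMSO (log2 fold change -0.73; limma adjusted p = 6.33e-09). Wasf1, an actin regulator, had 251 and 270 with TMP195, against 445 and 361 with DMSO (log2 fold change -0.62; limma adjusted p = 0.00132), and Synm, an intermediate filament protein, had 392 and 368 with TMP195, against 558 and 514 with DMSO (log2 fold change -0.49; limma adjusted p = 0.00242). In each of these genes the groups did not overlap. The kinase inhibitor gene Pkig and the transcription factor gene Creb1 fell, at log2 fold changes of -0.26 and -0.69. They were 1 of 2 kinase inhibitor genes and 1 of 6 CREB family genes tested. Among 10 genes of phosphatases and their inhibitors Arpp19 and Ppp2ca rose and 0 fell, beside 9.93% and 10.3% of all genes. In either direction 2 of these 10 passed, a share close to the 20.3% of all genes. Of 6 genes on the cGMP side (natriuretic peptide receptors, nitric oxide synthases and Prkg1) 0 passed limma, beside 20.3% of all genes. Prkg1 alone had an unadjusted p under 0.05, which 3945 of the 12689 genes tested reached.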

How the data were processed

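RNA of 2 TMP195 and 2 DMSO libraries was analysed from deposited tables. The signal per gene is a fragment count that the authors estimated and scaled per library; Cufflinks is named per the submitters' processing notes, with aligner, build and annotation not given in the sources used here. Dividing by each library's smallest step gave whole fragments within 0.1 for 99.27% to 99.46% of values, which is also how depth was found. The deposited FPKM values, ratios and p-values are the authors', whose test is not stated. The tables have 0 value columns without a sample.

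The signal was tested with limma 3.58.1 (R 4.3.3, trended empirical Bayes) on log2(value + 1) for genes with a mean of 1 or more, with 2 residual and 27.4 prior degrees of freedom and p-values adjusted over all genes; the script was tested on simulated data. Fold changes are TMP195 over DMSO. Shares and sums per length used FPKM. Named are all members past the threshold and the 2 per class of highest FPKM, and of the further list the 12 smallest p; other names were chosen after their values were seen. The members, gene lists, markers and motifs were chosen with earlier results of these data known. Names were matched to RefSeq (61 by symbol, 3 by synonym), whose GRCr8 coordinates are used for promoters and overlaps only. The differences between replicates were nearly uncorrelated between the groups (0.00472 over all genes tested, -0.0632 for genes with a mean of 100 or more). This cannot show whether replicate numbers pair the libraries by culture or day, which the labels do not state. Replicates differed beyond sampling noise (chi-square per gene 6.01 with TMP195 and 4.91 with DMSO). Sums and shares carry no interval for counting error.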

Additional observations from a re-analysis of the deposited data

How the results depend on the processing

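Of 131 values of the 15 called genes under other pseudocounts, filters, scalings, limma-voom and a replicate block, 128 stayed past the threshold in the same direction and 0 reversed; Adcy1, Adcy9 and Akap17a lost the call with no filter on low values. The replicate block, a fit with the replicate number as a term, called 1193 genes higher and 1266 lower and changed no call among the 55 genes. With no filter 1 cyclase was lower, and with a mean value of 100 or more, chosen after seeing the data, 0 cyclases were higher and 1 lower, since fewer cyclases were then tested. With Pde6d and Pde12 kept in the FPKM sum, the difference in share (TMP195 minus DMSO) was -1.284 percentage points for Pde4d, against 1.15 without them, 1.181 for Pde4b, against 3.056, and -1.815 for Pde1a, against -2.473.

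Without TMP195 replicate 1, limma called 322 genes higher and 406 lower. Leaving out each library in turn, with all tested genes or only those with a mean of 100 or more, gave 0 to 1086 genes higher and 0 to 1082 lower in the whole table, 0 to 3 members higher and 0 to 8 lower (7 or 8 at a mean of 100 or more). By class these were 0 to 0 cyclases higher and 0 to 1 lower, 0 to 3 phosphodiesterases lower, 0 to 1 kinase subunits lower, 0 to 3 anchors higher and 0 to 4 lower, and in the further list 0 to 8 higher and 0 to 11 lower (from 7 at a mean of 100 or more). Without TMP195 replicate 2 or either Vehicle library, fits of all tested genes gave 0 in every one of these counts, and the lone sample left in a group is assumed to vary like the other group. The high ends above 1 were reached with genes of a mean of 100 or more. In those fits the prior degrees of freedom were infinite, so no gene's own variance entered the p-values. Akap13 was called lower with a mean value of 10 or more (limma adjusted p = 0.0482), and also with equal library totals and limma-voom. Scaling by TMM factors, edgeR and DESeq2 were not run, because some values are not whole fragments. Genes with a mean under 20, 14 of the 55 tested, have intervals too wide to show changes of the size seen in abundant genes.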
